A study of Rattus norvegicus with 9 samples.

Results

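Rat sympathetic neurons were examined here for 8 genes of the cell death machinery: the pro-apoptotic Bcl-2 relatives Hrk, Bad and Bax, the anti-apoptotic Bcl2 and Bcl2l1 (which encodes Bcl-x), and the caspases Casp1, Casp2 and Casp6. A probe set is a group of short probes that together give 1 value on an Affymetrix rat genome expression array. The members were taken as every probe set whose annotation names 1 of these genes and no other. That rule found 21 of the 8740 probe sets tested, from 7 of the 8 genes: 4 for Hrk, 2 for Bad, 3 for Bcl2, 4 for Bcl2l1, 3 for Casp1, 3 for Casp2 and 2 for Casp6. Bax had none, because each of its 3 probe sets is also annotated to LOC681314, and no value is given for it.

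The 9 arrays covered 3 conditions with 3 replicates each. BMP24h cultures received bone morphogenetic protein-7 (BMP-7), a growth factor of the TGF-beta superfamily, at 50 ng/ml for 24 hr, BMP6h cultures received it for 6 hr, and control cultures were kept in medium alone for 24 hr. All cultures were neurons dissociated from superior cervical ganglia of Holtzman rat embryos at day 21, grown without serum after treatment with the mitotic inhibitor Ara-C to remove dividing non-neuronal cells, and BMP-7 was added on day 5. Each RNA sample pooled several cultures, and RNA of all conditions was isolated at the same time, per the Methods. The deposited values are log2 expression values. Values of different probe sets do not compare transcript levels, since probes differ in how strongly they bind.

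As background, the death program of neurons can begin with a JNK and c-Jun response that induces BH3-only proteins. These proteins bind and block the guardians Bcl-2 and Bcl-x, Bax then permeabilizes the outer mitochondrial membrane, cytochrome c is released, and caspases cleave the cell from within. Hrk, also called DP5, is a BH3-only protein first found in dying rat sympathetic neurons. Bad is a BH3-only protein that is held inactive by cytosolic scaffold proteins when survival kinases have phosphorylated it. Caspase-2 and caspase-6 take part in neuronal death and axon breakdown, whereas caspase-1 is the inflammatory caspase that matures interleukin-1 beta.

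Array BMP6h replicate 2 stood apart from the rest, where 9.99% of all probe sets differed by over 1 log2 unit from its 2 companions on average, and the BMP6h values of the members are therefore also given without it. The cultures are labelled as neurons, and Th, which encodes the rate-limiting enzyme of catecholamine synthesis, averaged 13.49 in control arrays. The mean over 10 neuronal markers was 11.46 to 11.65 on BMP24h arrays, 11.64 to 11.69 on BMP6h arrays and 11.63 to 11.65 on control arrays. Some markers of other cells also read high in control, such as Sparc at 12.62, Mgp at 12.07 and Pmp22 at 12.03. Others read low, such as the glial Sox10 at 4.57 and Fabp7 at 3.64. Since levels of different probe sets are not compared, these values do not measure the share of each cell type. The mean over 12 fibroblast and matrix markers was 9.28 to 9.49 on BMP24h arrays, against 9.60 to 9.71 on BMP6h arrays and 9.56 to 9.84 on control arrays. It was thus lower on all BMP24h arrays, though its markers were mixed. Their log2 fold changes at 24 hr ran from -0.73 for Dcn to 0.15 for Fn1, and Col1a1 and Col5a2 were also higher, at 0.08 and 0.04. For 8 markers of macrophages and blood, cells known to express Casp1, the mean was 6.81 to 6.87 on BMP24h arrays, 6.88 to 6.99 on BMP6h arrays and 6.86 to 6.92 on control arrays. For 10 markers of glia it was 7.08 to 7.27 on BMP24h arrays, 7.09 to 7.11 on BMP6h arrays and 7.14 to 7.21 on control arrays. For 7 endothelial and mural markers it was 6.98 to 7.06 on BMP24h arrays, 6.96 to 7.12 on BMP6h arrays and 7.10 to 7.33 on control arrays. That mean was thus lower on all BMP24h arrays than on the control arrays, but its markers differed. Their log2 fold changes at 24 hr were -1.39 for Kdr, -0.31 for Vcam1, -0.19 for Pecam1, -0.12 for Vwf and -0.06 for Icam1. Acta2 and Tagln were higher, at 0.32 and 0.13. What part these cells had in the values below was not tested, and in RNA from whole cultures fewer cells of a type and less RNA per cell cannot be told apart.

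No member changed at an adjusted p under 0.05 in any comparison. The member with the largest difference from control at 24 hr was the BH3-only gene Hrk, which was lower on all 3 BMP24h arrays at 1 of its 4 probe sets. Differences were tested with limma, with condition and array batch as terms and with Benjamini-Hochberg adjustment of the p-values over all 8740 probe sets. At 24 hr 0 of 21 member probe sets passed, against 0.217% of all probe sets, at 6 hr 0 of 21 against 0.0458%, between the 2 times 0 of 21 against 0.0%, and in the F-test across the 3 conditions 0 of 21 against 0.172%. An unadjusted p under 0.05 in limma was reached by 1 member probe set at 24 hr, where 3.4% of all probe sets reached it, by none at 6 hr, where 1.73% did, and by 1 between the 2 times, where 2.96% did. The ordinary two-way analysis left 0 of 21 past the adjusted test in each comparison, as it did 0.0% of all probe sets. The median standard error of a member's log2 fold change was 0.20, against 0.18 over all probe sets.

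The study's Methods used looser thresholds, an unadjusted p under 0.05 with a change of at least 1.2-fold. On the limma fit 1 member probe set, of Hrk, was past them and lower at 24 hr, where 1.74% of all probe sets were, and none was higher, where 1.6% were. At 6 hr none was lower or higher, against 0.847% and 0.881% of all probe sets. Between BMP24h and BMP6h the same Hrk probe set was past them and lower, where 1.52% of all probe sets were, and none was higher, where 1.4% were. In the F-test no member had a p under 0.005, against 0.824% of all probe sets. A count of 1 in 21 is a single probe set away from these background shares, and nothing is read from it.

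Hrk lies on chromosome 12 at chr12:44048402-44070561 on the minus strand of the GRCr8 assembly. The 250 bases before its start are shown because Hrk is the member past the thresholds of the Methods, and the promoter was searched on both strands for motifs of c-Jun, ATF, CREB and BMP Smad factors. Capitals mark TGATGTAA, a variant of the site bound by ATF and c-Jun family factors, which lies 108 to 101 bases before the start.
Hrk promoter, chr12:44070562-44070811, minus strand, RefSeq on GRCr8: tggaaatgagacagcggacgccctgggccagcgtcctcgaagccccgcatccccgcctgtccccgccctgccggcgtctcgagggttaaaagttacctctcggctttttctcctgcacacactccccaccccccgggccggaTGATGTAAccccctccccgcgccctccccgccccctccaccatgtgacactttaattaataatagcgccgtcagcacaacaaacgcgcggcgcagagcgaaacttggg
The TGATGTAA letters occur in the windows of 0.893% of 33469 promoters of this length, and among the members also before the start of Bcl2, 244 to 237 bases upstream. The AP-1 motif TGANTCA, the CRE motif TGACGTCA and the motif GGCGCC, recognized by BMP Smads, were not found in the window of Hrk or in those of the other 6 genes, and occur in 6.34%, 1.59% and 8.69% of all promoters. TGATGTAA was added to the search after the Hrk sequence had been seen. These matches describe letters only.

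Hrk transcript was lower at 24 hr at probe set rc_AI102299_s_at, with values that did not overlap with control. It read 8.16, 8.49 and 8.14 on the BMP24h arrays, 8.63, 8.82 and 8.54 on the BMP6h arrays, and 8.87, 8.66 and 8.67 on the control arrays. The 3 BMP24h arrays were the lowest of the 9, while BMP6h and control arrays overlapped. The log2 fold change of BMP24h against control was -0.47 (SE 0.15, 95% interval -0.82 to -0.12), a level 0.72 times that of control (limma adjusted p = 0.835), which was past the thresholds of the Methods. It stood at -0.71 in array batch 1 and at -0.36 in array batch 2, and batch 2 alone was not past those thresholds. Leaving out control replicate 1, BMP24h replicate 1 or BMP24h replicate 3 gave -0.37, -0.40 and -0.41, none past them. Array weights, which lower the influence of uneven arrays, gave -0.63 with a limma adjusted p of 0.00398, against 0.271 to 1.0 under the other alternatives. The weights were largest for replicate 1 of each condition, the array of batch 1, at 5.764 in BMP24h and 2.931 in control. With them 3.2% of all probe sets passed the adjusted test at 24 hr.

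At 6 hr the same probe set differed little from control, with a log2 fold change of -0.07 (SE 0.15, 95% interval -0.42 to 0.28), or -0.16 without BMP6h replicate 2. BMP24h against BMP6h gave -0.40 (SE 0.15, limma adjusted p = 0.939), past the thresholds of the Methods, and -0.32 without BMP6h replicate 2, which was not past them. Without BMP6h replicate 1, BMP24h replicate 1 or BMP24h replicate 3 it was -0.43, -0.33 and -0.34, none past them.

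The other 3 probe sets of Hrk had overlapping BMP24h and control arrays. Probe set D83697_at read 8.25, 8.26 and 8.08 on BMP24h arrays, 8.48, 9.00 and 8.40 on BMP6h arrays, and 8.46, 8.49 and 8.15 on control arrays. Here control replicate 3 lay among the BMP24h values, and all BMP6h arrays were above all BMP24h arrays. The log2 fold change was -0.17 (SE 0.19) at 24 hr and 0.26 at 6 hr, where it was 0.06 without BMP6h replicate 2. Probe set E13573cds_s_at read 7.45, 7.47 and 7.22 on BMP24h arrays, 7.65, 8.84 and 7.30 on BMP6h arrays, and 7.75, 7.36 and 7.51 on control arrays. Its high value of 8.84 came from BMP6h replicate 2 alone, and the log2 fold change was -0.16 (SE 0.37) at 24 hr and 0.39 at 6 hr, or -0.10 without that array. Probe set rc_AA925846_s_at read 7.66, 7.92 and 7.49 on BMP24h arrays, 7.89, 8.32 and 7.87 on BMP6h arrays, and 8.05, 7.99 and 7.61 on control arrays, with overlap throughout. Its log2 fold change was -0.19 (SE 0.20) at 24 hr and 0.14 at 6 hr, or -0.02 without BMP6h replicate 2.

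All 4 Hrk probe sets thus had a lower mean in BMP24h than in control. Their pairwise correlations over the 9 arrays were 0.57 to 0.92, as a description of probe sets that share arrays, and without BMP6h replicate 2 they were 0.46 to 0.89. The pair that moved most was D83697_at and E13573cds_s_at, at 0.87 on 9 arrays and 0.46 on 8. The mean over the 4 gave a log2 fold change of -0.25 at 24 hr (SE 0.20, 95% interval -0.72 to 0.22, limma adjusted p = 1.0), 0.18 at 6 hr (SE 0.20) and -0.43 between the times (SE 0.20, adjusted p = 0.918). Without BMP6h replicate 2 the 6 hr value turned to -0.05 (SE 0.13) and the value between the times was -0.19 (SE 0.13).

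**Figure D1:**
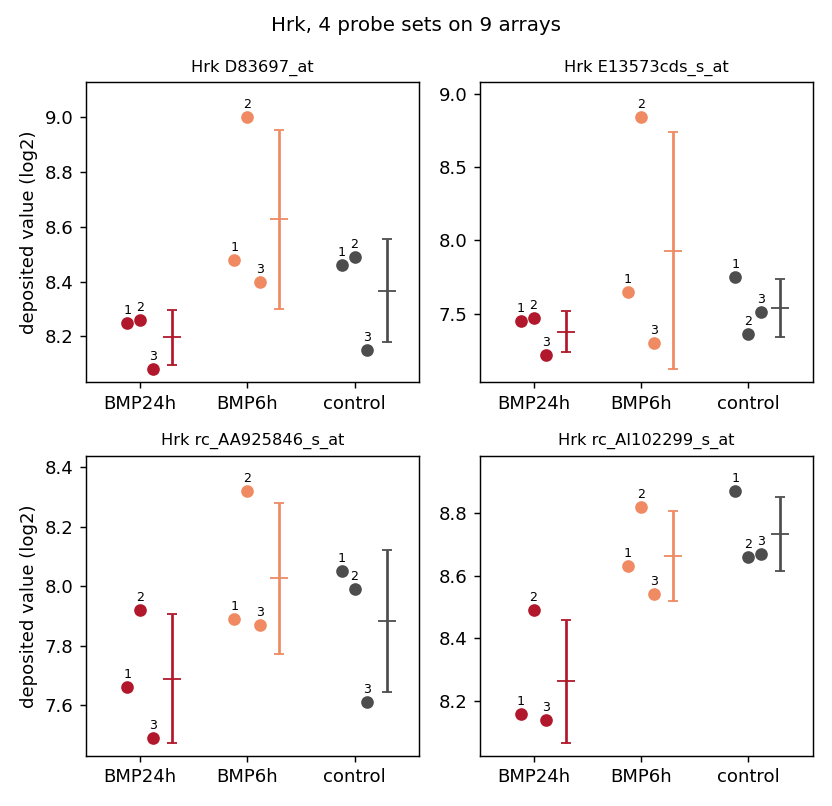
Deposited log2 values of the 4 Hrk probe sets on each array of BMP24h, BMP6h and control, with the replicate number above each point and the mean ± SD (n = 3) beside the points. The BMP24h arrays of rc_AI102299_s_at, at 8.14 to 8.49, lie below all control arrays, at 8.66 to 8.87, and BMP6h replicate 2 is the highest array in the other 3 panels.

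The 3 other genes whose probe sets followed rc_AI102299_s_at most closely over the 9 arrays were Trib3 (Pearson's r = 0.976), Hspb1 (r = 0.957) and Csrp1 (r = 0.939). Trib3 encodes a pseudokinase of the stress response, Hspb1 a small heat shock protein, and Csrp1 a LIM domain protein. Their log2 fold changes at 24 hr were -0.57, -0.39 and -0.18, none past the adjusted test, and at 6 hr they were -0.01, -0.02 and -0.07. They were picked as the highest of all named genes, and the 9 arrays share conditions and batches.

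Bad, the BH3-only gene that couples survival kinases to Bcl-x, was lower on all BMP-7 arrays at 1 of its 2 probe sets, by a small amount. Probe set rc_AA818072_s_at read 10.46, 10.48 and 10.44 on BMP24h arrays, 10.47, 10.47 and 10.42 on BMP6h arrays, and 10.56, 10.61 and 10.56 on control arrays. The 6 BMP-7 arrays did not overlap with the 3 control arrays, BMP6h replicate 2 included, and the SD within a condition was 0.018 to 0.031. The log2 fold change was -0.12 (SE 0.10, 95% interval -0.35 to 0.12) at 24 hr and -0.13 (SE 0.10, 95% interval -0.36 to 0.11) at 6 hr, each a level 0.92 times that of control, and the 6 hr value was -0.14 without BMP6h replicate 2. The limma adjusted p was 1.0 at 24 hr and 0.887 at 6 hr.

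At this probe set limma and the ordinary analysis differed. In limma, which draws each probe set's variance toward that of the others, the F-test across conditions had an adjusted p of 0.95. The ordinary two-way analysis of the Methods, which uses the probe set's own variance, put it past the Methods' F-test threshold of 0.005, though not past the adjusted test. Neither contrast reached 1.2-fold. The other Bad probe set, AF003523_s_at, read 8.47, 8.38 and 8.73 on BMP24h arrays, 8.72, 8.33 and 8.75 on BMP6h arrays, and 8.70, 8.65 and 8.94 on control arrays. Its groups overlapped, with log2 fold changes of -0.23 (SE 0.17) at 24 hr and -0.16 (SE 0.17) at 6 hr, which was -0.02 without BMP6h replicate 2.

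Bcl2, the founding guardian of the family, had 95% intervals that held 0 at each probe set in every comparison. Probe set S74122_s_at read 7.45, 7.57 and 7.55 on BMP24h arrays, 7.59, 7.62 and 7.51 on BMP6h arrays, and 7.64, 7.45 and 7.66 on control arrays. All 3 conditions overlapped, with log2 fold changes of -0.06 (95% interval -0.33 to 0.21) at 24 hr and -0.01 (95% interval -0.28 to 0.26) at 6 hr, or -0.03 at 6 hr without BMP6h replicate 2. Probe set L14680_g_at ranged over 7.46 to 7.55 in BMP24h, 7.50 to 8.36 in BMP6h and 7.46 to 7.66 in control, and L14680_at over 3.68 to 4.15 in BMP24h, 3.45 to 6.33 in BMP6h and 3.45 to 4.25 in control. Both BMP6h maxima were replicate 2, and without it the log2 fold changes at 6 hr, 0.28 and 0.69 on all arrays, were 0.01 and -0.22. At 24 hr they were -0.07 (SE 0.22) and -0.05 (SE 0.66). The mean of L14680_at over the 9 arrays, 4.18, lay at percentile 6.37 of all probe sets, where the lowest deposited value was 2.69. Whether this probe set reads Bcl2 transcript above background was not tested.

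Bcl2l1, whose main product Bcl-xL holds Bax and the BH3-only proteins in check, had a lower mean in BMP24h than in control at all 4 probe sets, none past either threshold. Probe set U72350_at read 7.92, 7.99 and 7.93 on BMP24h arrays, 8.16, 7.66 and 7.91 on BMP6h arrays, and 8.03, 8.15 and 8.58 on control arrays. The BMP24h arrays lay just below all control arrays, with a log2 fold change of -0.31 (SE 0.19, 95% interval -0.75 to 0.13, limma adjusted p = 1.0). This 24 hr value was -0.12 in array batch 1 and -0.41 in array batch 2, which holds control replicate 3, the highest array at 8.58. At 6 hr the probe set had the lowest unadjusted p of any member, with a log2 fold change of -0.35 (SE 0.19, adjusted p = 0.887), or -0.21 without BMP6h replicate 2. That 6 hr value was 0.13 in array batch 1 and -0.58 in array batch 2, opposite in sign, and array batch 2 alone was past the thresholds of the Methods. Probe set S78284_s_at read 8.31, 8.27 and 8.37 on BMP24h arrays, 8.61, 8.99 and 8.31 on BMP6h arrays, and 8.45, 8.41 and 8.39 on control arrays. BMP24h and control did not overlap here either, and the log2 fold change was -0.10 (SE 0.17). At 6 hr it was 0.22, or 0.03 without BMP6h replicate 2.

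The remaining Bcl2l1 probe sets overlapped in all comparisons. U34963_s_at ranged over 6.44 to 7.02 in BMP24h, 6.10 to 6.88 in BMP6h and 6.66 to 6.90 in control, with a log2 fold change of -0.10 (SE 0.26) at 24 hr and of -0.14 at 6 hr, which was 0.14 without BMP6h replicate 2. U72349_at ranged over 5.89 to 6.72 in BMP24h, 5.88 to 6.50 in BMP6h and 6.33 to 6.83 in control, with -0.24 (SE 0.27) at 24 hr and -0.26 at 6 hr, or -0.37 at 6 hr without that array. The mean over the 4 gave -0.19 at 24 hr (SE 0.13, 95% interval -0.49 to 0.11) and -0.13 at 6 hr (SE 0.13), or -0.10 at 6 hr without BMP6h replicate 2. Which splice form of Bcl-x each probe set reads was not analysed here, and their pairwise correlations over the 9 arrays ran from -0.54 to 0.52. Without BMP6h replicate 2 the correlation of S78284_s_at was 0.42 with U34963_s_at and 0.34 with U72350_at, against -0.54 and -0.37 with that array.

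**Figure D2:**
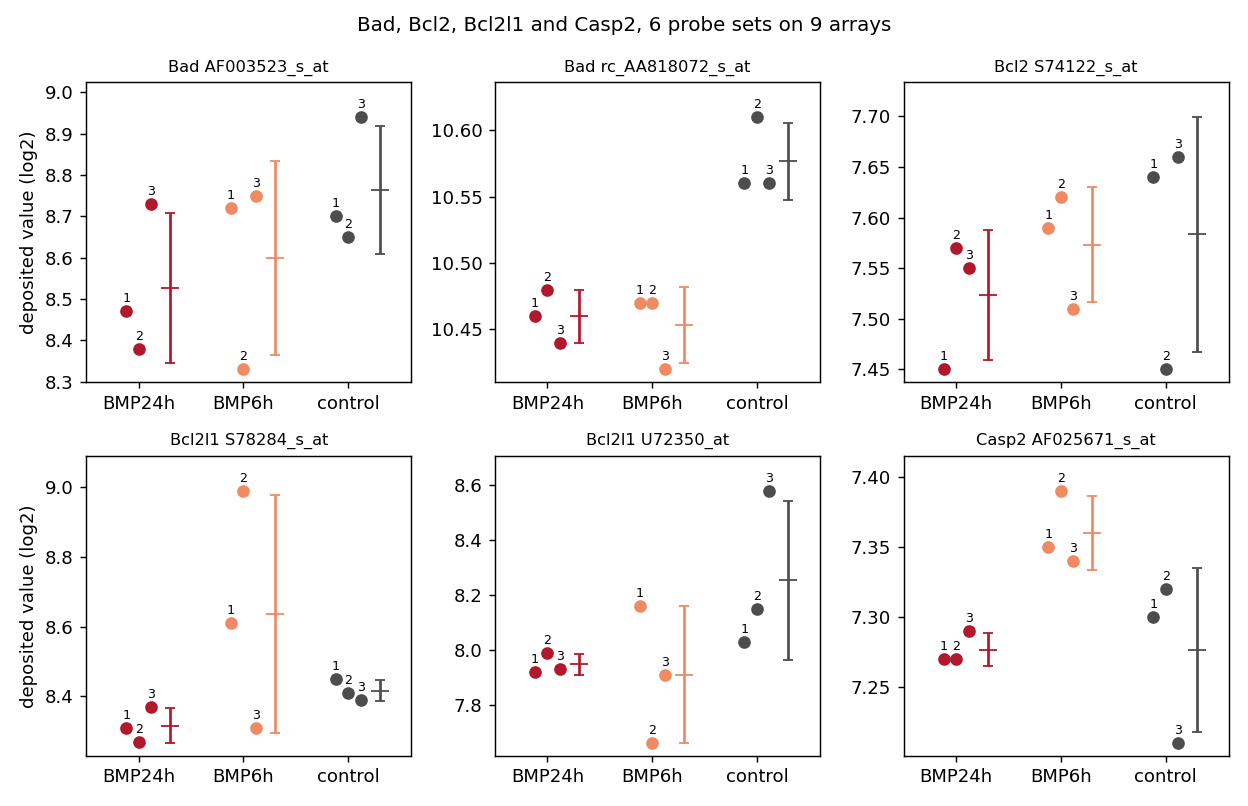
Deposited log2 values of 6 probe sets of Bad, Bcl2, Bcl2l1 and Casp2 on each array of BMP24h, BMP6h and control, with the replicate number above each point and the mean ± SD (n = 3) beside the points; the scale differs between panels. In Bad rc_AA818072_s_at the 6 BMP-7 arrays, at 10.42 to 10.48, lie below the control arrays, at 10.56 to 10.61.

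Casp2, a caspase implicated in neuronal death, had log2 fold changes of -0.05 to 0.02 at 24 hr at its 3 probe sets. Probe set AF025671_s_at read 7.27, 7.27 and 7.29 on BMP24h arrays, 7.35, 7.39 and 7.34 on BMP6h arrays, and 7.30, 7.32 and 7.21 on control arrays. Its BMP6h arrays were above all others. The log2 fold change was 0.08 (SE 0.10, 95% interval -0.16 to 0.32) at 6 hr and -0.08 (SE 0.10) for BMP24h against BMP6h, and without BMP6h replicate 2 these were 0.07 and -0.07. U34684_s_at and U77933_at overlapped in every comparison, with log2 fold changes of -0.05 (SE 0.16) and 0.02 (SE 0.23) at 24 hr. At 6 hr these were -0.07 and -0.22, with BMP6h replicate 2 the lowest of the 9 arrays in both. Without that array U34684_s_at was at 0.05 and U77933_at at -0.004. The mean of U34684_s_at over the 9 arrays lay low, at percentile 16.8 of all probe sets.

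Casp6, an effector caspase linked in mouse neurons to axon degeneration, had overlapping arrays in all conditions. AF025670_at ranged over 6.50 to 6.84 in BMP24h, 6.43 to 7.68 in BMP6h and 6.46 to 7.04 in control, and AF025670_g_at over 6.27 to 6.40 in BMP24h, 6.15 to 6.95 in BMP6h and 5.93 to 6.44 in control. The log2 fold changes at 24 hr were -0.10 (SE 0.32) and 0.14 (SE 0.23), the second the highest of the 21 members at that time. Both BMP6h maxima were again replicate 2, and the 6 hr values of 0.21 and 0.29 were -0.18 and 0.05 without it.

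The Casp1 probe sets were set apart by BMP6h replicate 2. S79676_s_at read 7.44, 7.47 and 7.68 on BMP24h arrays, 7.59, 7.07 and 7.62 on BMP6h arrays, and 7.58, 7.79 and 7.58 on control arrays, with BMP6h replicate 2 the lowest. U14647_at read 5.24, 5.02 and 5.02 on BMP24h arrays, 5.25, 6.80 and 4.89 on BMP6h arrays, and 5.27, 4.80 and 5.01 on control arrays, with BMP6h replicate 2 the highest. U14647_g_at had 7.00 on that array, against 4.57 to 5.31 on the other 8. The correlation of S79676_s_at with the 2 others over the 9 arrays was -0.91 and -0.86, and over the 8 arrays without BMP6h replicate 2 it was -0.62 and -0.33. At 24 hr the log2 fold changes were -0.12 (SE 0.18) for S79676_s_at, 0.07 (SE 0.45) for U14647_at and -0.22 (SE 0.56) for U14647_g_at. At 6 hr they were -0.22, 0.62 and 0.61, and without BMP6h replicate 2 they were -0.03, -0.01 and -0.15. The means of U14647_at and U14647_g_at over the 9 arrays lay low, at percentiles 19.3 and 17.5 of all probe sets.

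The direction of the members at 24 hr was mostly toward lower values. Of the 21 probe sets 18 (85.7%) had a lower mean in BMP24h than in control, against 48.2% of all probe sets, with a median log2 fold change of -0.10, against 0.01 over all probe sets, and a range of -0.47 to 0.14. Members of 1 gene share transcripts and all share arrays, so the 21 are not independent. The groups did not overlap in 4 of the 21, all lower in BMP24h (Hrk rc_AI102299_s_at, Bad rc_AA818072_s_at and Bcl2l1 S78284_s_at and U72350_at), where 7.07% of all probe sets were, and in 0 with higher values, where 5.61% were. These 4 include both genes that promote death and a gene that opposes it. The mean over the fibroblast and matrix markers, 9.28 to 9.49 on BMP24h arrays, against 9.56 to 9.84 on control arrays, was likewise lower. Among these markers Fn1, Col1a1 and Col5a2 were higher. The mean over the endothelial and mural markers was lower as well, where Kdr changed most and Acta2 and Tagln were higher. What part these cells had in the member values was not tested.

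At 6 hr the members split, with 10 lower (47.6%, against 55.1% of all probe sets) and 11 higher and a median log2 fold change of 0.08, against -0.02 over all probe sets. Without BMP6h replicate 2 the split was 14 lower and a median of -0.02. Only Bad rc_AA818072_s_at was lower without overlap, where 6.96% of all probe sets were, and Casp2 AF025671_s_at was higher without overlap, where 3.65% were. Between BMP24h and BMP6h 14 of 21 were lower in BMP24h (66.7%, against 45.1% of all probe sets), with a median of -0.15, or -0.07 without BMP6h replicate 2, against 0.03 over all probe sets. There 3 probe sets were lower without overlap (Hrk D83697_at and rc_AI102299_s_at, and Casp2 AF025671_s_at), where 4.04% of all probe sets were, and 0 were higher, where 5.63% were.

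**Figure D3:**
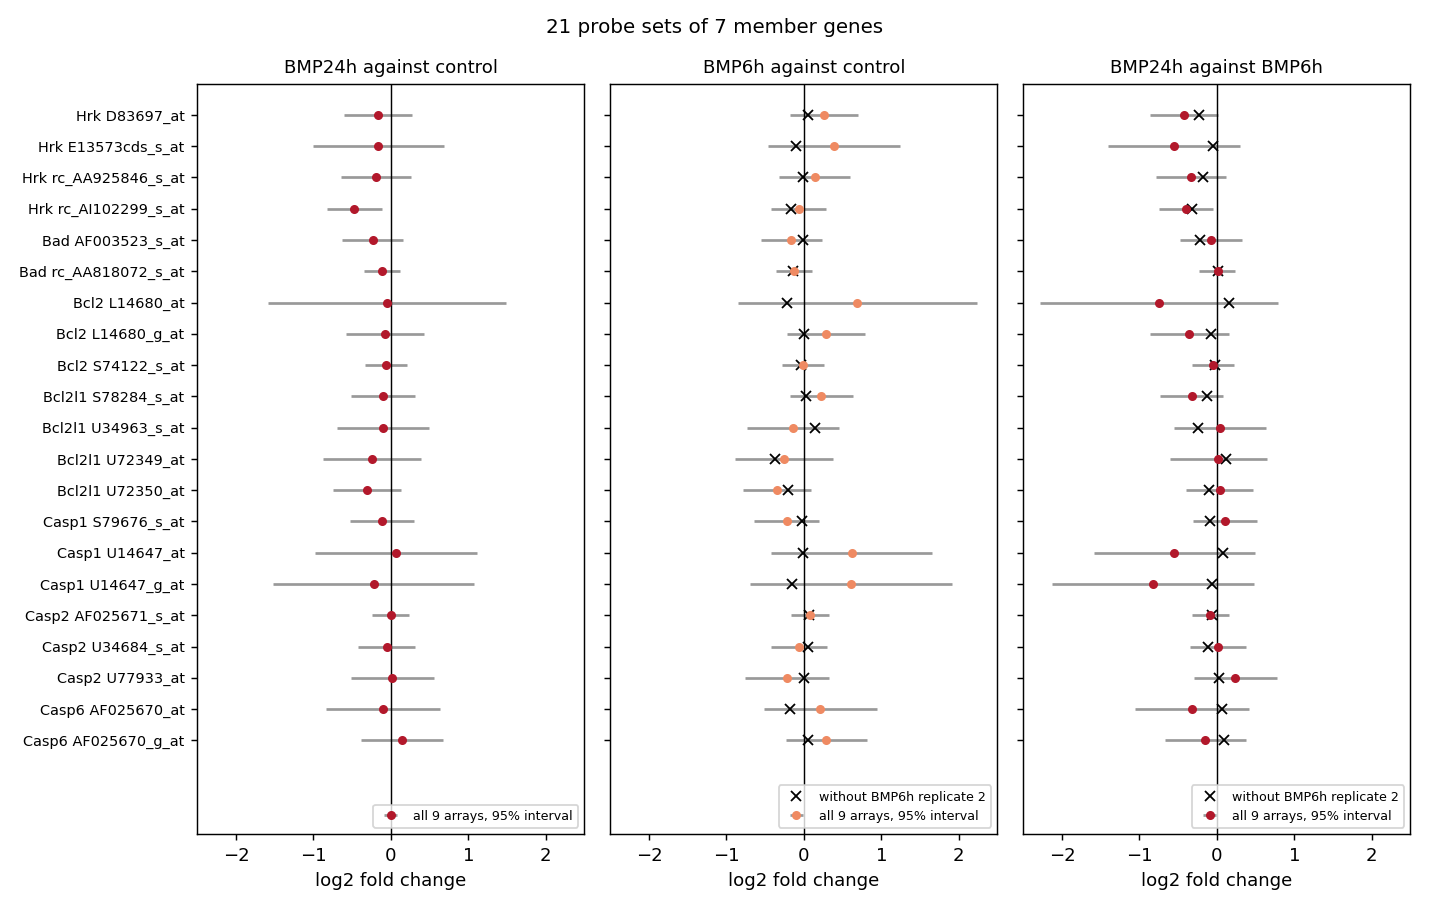
Log2 fold changes of the 21 member probe sets in the 3 comparisons from limma on all 9 arrays (filled points, bars show 95% intervals), with crosses for the fit without BMP6h replicate 2. At 24 hr against control 18 of 21 points lie left of 0, and the interval of Hrk rc_AI102299_s_at, -0.82 to -0.12, is the one that leaves out 0.

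BMP6h replicate 2 held the extreme value at most members. It was above all other 8 arrays at 11 of the 21 member probe sets (52.4%), against 23.9% of all probe sets, and below them at 6 (28.6%), against 34.5%. Against the mean of its 2 companions it was 2.50 higher at Bcl2 L14680_at, 2.09 and 1.73 higher at Casp1 U14647_g_at and U14647_at, 1.37 higher at Hrk E13573cds_s_at and 1.07 higher at Casp6 AF025670_at, on the log2 scale. At the same time its difference was -0.78 at Bcl2l1 U34963_s_at and -0.60 at Casp2 U77933_at. The 4 member probe sets at which it lay within the range of the others were Hrk rc_AI102299_s_at, Bad rc_AA818072_s_at, Bcl2 S74122_s_at and Bcl2l1 U72349_at.

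**Figure D4:**
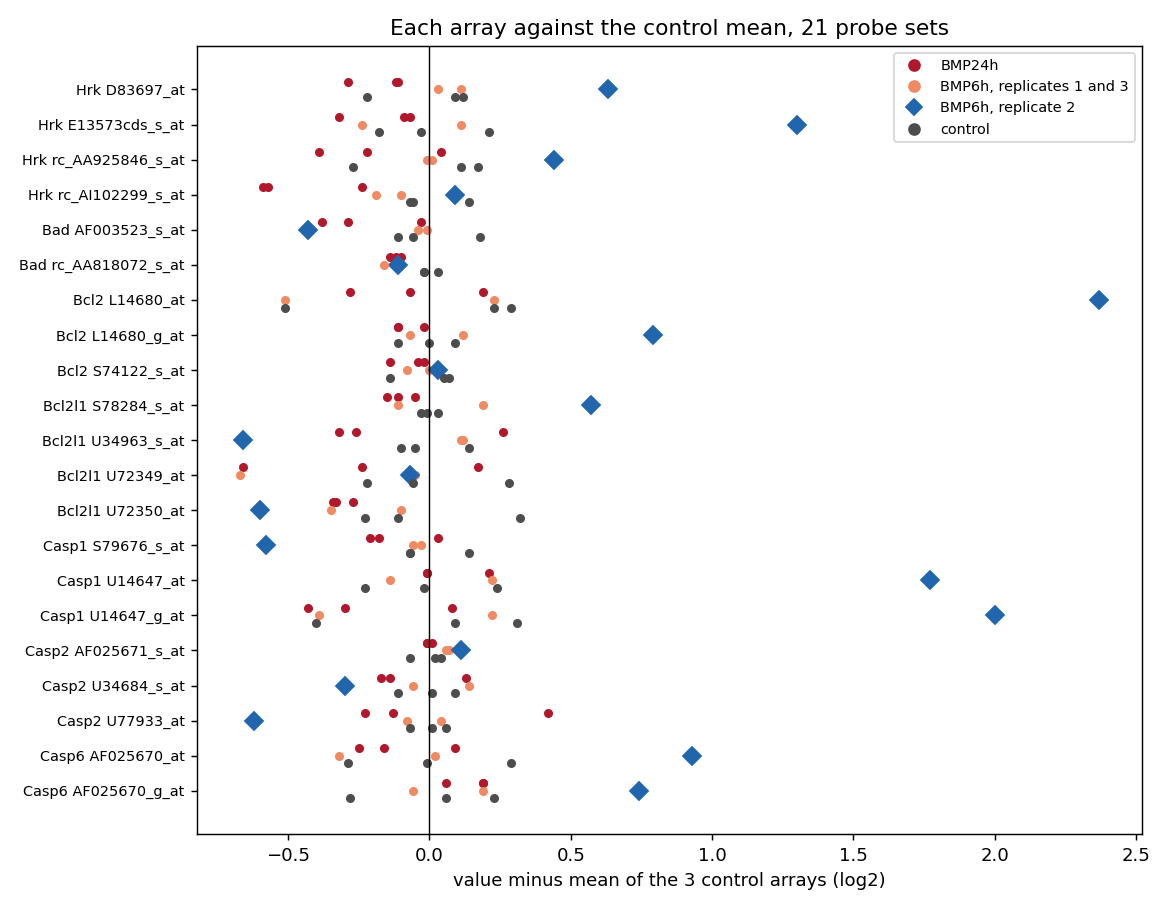
Each array's value minus the mean of the 3 control arrays (log2) for the 21 member probe sets, in BMP24h, in BMP6h with replicate 2 as a diamond, and in control. The diamond lies farthest right at Bcl2 L14680_at and the 2 U14647 probe sets of Casp1, and left of all other arrays at 6 probe sets.

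Other genes of the death and survival pathways were taken from 7 lists with 92 genes, of which 47 were measured, each at the probe set with the highest mean value over the 9 arrays, a rule that only picks 1 probe set a gene. Of the 6 genes in the list of further caspases 0 were measured, so no caspase is among the 47. At 24 hr 34 of the 47 (72.3%) had a lower mean than control, against 47.8% of the 4746 named genes, and the median of their log2 fold changes was -0.09, against 0.01 over the named genes. None of the 47 passed the adjusted test at 24 hr (0.211% of named genes), at 6 hr (0.0421%) or between the times (0.0%). With the mean over each gene's probe sets 1 of the 47, Ngfr, passed it at 24 hr. The thresholds of the Methods were passed at 24 hr by 3 genes with lower values (2.11% of named genes) and 0 with higher (1.81%), at 6 hr by 3 with lower (0.885%) and 1 with higher (0.906%), and between the times by 2 with lower (1.69%) and 0 with higher (1.64%). Ngfr encodes the p75 neurotrophin receptor, and its 2 probe sets differed. X05137_at read 12.07, 11.92 and 12.12 on BMP24h arrays, 10.88, 10.67 and 11.01 on BMP6h arrays, and 10.06, 9.87 and 10.43 on control arrays, with no overlap between conditions. It rose at 24 hr, with a log2 fold change of 1.91 (SE 0.18, limma adjusted p = 0.0109), and stood at 0.73 (SE 0.18, adjusted p = 0.887) at 6 hr. The 24 hr value was 1.77 to 2.08 under the alternatives, with adjusted p-values of 1.41e-05 to 0.568, and leaving out control replicate 1 or 2 or any BMP24h array took it out of the adjusted test, as did the ordinary analysis and array batch 2 alone. U25650_f_at, the one picked by the rule, stood at 0.29 (SE 0.13, adjusted p = 1.0), and the mean over both at 1.10 (SE 0.13, adjusted p = 0.0207). At the probe sets picked by the rule the 6 measured death receptors and adaptors held no gene past a threshold in any comparison.

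Among the relatives of the members, the 6 further Bcl-2 family genes measured had log2 fold changes at 24 hr with a median of -0.10. Bok, a Bax-like killer, read 9.04, 8.91 and 8.97 on BMP24h arrays, 9.32, 9.41 and 9.35 on BMP6h arrays, and 9.34, 9.30 and 9.45 on control arrays at AF027954_at, which is not the probe set picked by the rule. Its BMP24h arrays were below the other 6, with a log2 fold change of -0.39 (SE 0.11, limma adjusted p = 0.653). The Bok probe set picked by the rule, AF027954_g_at, was also lower, at -0.25 (SE 0.10), which was not past the thresholds of the Methods. It read 9.46 to 9.54 on BMP24h arrays, against 9.70 to 9.79 on control arrays. Diablo, a mitochondrial protein that relieves caspases of their inhibitors, was the 1 of 4 measured genes of the apoptosome and its inhibitors past the thresholds of the Methods, at -0.42 (SE 0.13, adjusted p = 0.786) at 24 hr, with 10.10 to 10.41 on BMP24h arrays, against 10.62 to 10.70 on control arrays. Without BMP24h replicate 1 it was -0.40 and no longer past them.

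In the list of JNK, c-Jun and p53, which can lie upstream of Hrk, 7 of 9 measured genes (77.8%) had a lower mean in BMP24h than in control, against the 47.8% of named genes. Atf3, a stress-induced partner of c-Jun, read 7.92, 7.94 and 7.48 on BMP24h arrays, 7.94, 8.57 and 7.92 on BMP6h arrays, and 8.86, 8.68 and 8.84 on control arrays, with log2 fold changes of -1.01 (SE 0.22, adjusted p = 0.283) at 24 hr and -0.65 (SE 0.22, adjusted p = 0.887) at 6 hr. All 6 BMP-7 arrays were below the control arrays. The 6 hr value was past the thresholds of the Methods, but not without control replicate 1, BMP6h replicate 1 or BMP6h replicate 3, which gave -0.60, -0.49 and -0.53. Gadd45a, a growth arrest and stress gene, was below all control arrays at both times at each of its 4 probe sets, with log2 fold changes of -0.47 to -0.83 at 24 hr, none past the adjusted test, and of -0.09 to -0.33 in array batch 1 at 24 hr. All 4 were past the looser thresholds at 6 hr and at 24 hr, and at rc_AI070295_g_at this held when any array was left out. Leaving out control replicate 3 ended it at L32591mRNA_at and L32591mRNA_g_at at both times and at rc_AI070295_at at 6 hr, and leaving out control replicate 2, BMP6h replicate 1, BMP6h replicate 2, BMP24h replicate 1 or BMP24h replicate 2 ended it for 1 or more of these 3. Jun, which encodes c-Jun, had 4 probe sets that differed. At 6 hr rc_AI175959_at was at -0.52 (SE 0.21, adjusted p = 0.887), past the thresholds of the Methods, and rc_AA945867_at at -0.38, whereas rc_AA944014_at and X17163cds_s_at were at 0.05 and 0.04. At 24 hr the 4 ranged from -0.30 to 0.01. Without control replicate 3 or BMP6h replicate 2 the 6 hr value of rc_AI175959_at was -0.32 and -0.35, not past those thresholds, nor was it past them without BMP24h replicate 1 or BMP24h replicate 2. Map3k1, a kinase upstream of JNK, was higher at 6 hr at all 3 probe sets, by 0.60 to 0.69, with BMP6h arrays above all BMP24h and control arrays at each and adjusted p-values of 0.887. The 3 values were 0.97 to 1.05 in array batch 1 and 0.42 to 0.51 in array batch 2.

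Of the 17 measured genes of survival signalling, 13 (76.5%) had a lower mean in BMP24h than in control, against the 47.8% of named genes. Pak1, a kinase that phosphorylates Bad, was lower in BMP24h than in BMP6h, with a log2 fold change of -0.50 (SE 0.17, adjusted p = 0.939), with 7.32 to 7.81 on BMP24h arrays, against 7.86 to 8.17 on BMP6h arrays. It was past the thresholds of the Methods, but not without BMP6h replicate 1 or 2 or BMP24h replicate 1 or 2, which gave -0.39 to -0.49. The 5 measured partners of caspase-1, among them Il1b and Il18, held no gene past a threshold.

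**Figure D5:**
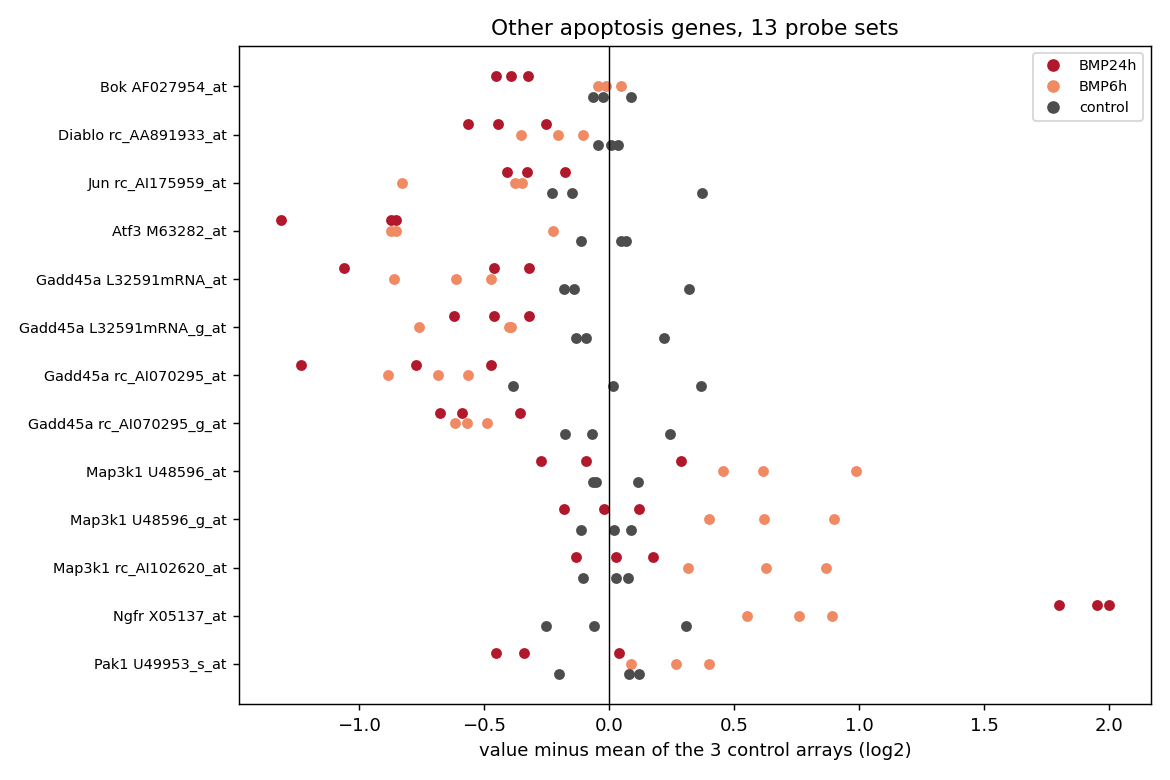
Each array's value minus the mean of the 3 control arrays (log2) for 13 probe sets of 8 further death and survival genes, in BMP24h, BMP6h and control. Ngfr X05137_at, with a log2 fold change of 1.91 at 24 hr, is the one probe set past the adjusted test, and the Atf3 and Gadd45a points of both BMP-7 groups lie left of all control points.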

How the data were processed

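The authors made the deposited log2 values with RMA in Partek Genomics Suite 6.5 and removed the batch difference between replicate 1 and replicates 2 and 3. Batch means differed by at most 6.67e-05. Control probe sets were left out and 8740 tested. Of these, 7006 name 1 gene in the platform annotation and 16 more do through the study's tables. The fit was made in limma 3.58.1 (R 4.3.3) on terms for condition and array batch, with 5 residual degrees of freedom, as the moderated form of the two-way analysis of the Methods. Benjamini-Hochberg adjustment ran over all tested probe sets. The fit was run on simulated data with independent noise. Those data had no batch difference and no outlying array, so that run does not cover either. Each of 3 dissections gave 1 sample of each condition, and the labels do not say whether a replicate number marks a dissection. Precision is limited by the number of arrays. Members and lists were chosen with earlier results of these data known. Other genes were named where a probe set passed the adjusted test or the thresholds of the Methods in a comparison, up to 5 a list, and some items are not reported here. Alternatives covered the batch term, replicate block, ordinary analysis, intensity trend, array weights, fewer groups or arrays, scaling and dim probe sets. The use of the mean over a member's probe sets, that mean and counts without BMP6h replicate 2, and the alternatives for other named genes were added after the data were seen.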

Additional observations from a re-analysis of the deposited data

How the results depend on the processing

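The Hrk values past the thresholds of the Methods, at 24 hr and between the times, and the 24 such values of other named probe sets changed sign under none of the alternatives run, and 6 of these 24 were past those thresholds under every tested one. All had been picked for passing those thresholds on the same arrays. Changing only the batch term, the block or the variance estimate leaves the log2 fold change as it is, since each batch holds every condition equally. The unchanged signs are therefore not read as support. With 3 arrays a condition, the counts rest on single arrays. The count of member probe sets past the adjusted test, 0 on all arrays, was 1 with array weights at 24 hr, between the times and in the F-test, where 3.2%, 2.27% and 2.8% of all probe sets passed, and 0 under every other alternative. Of those past the thresholds of the Methods at 24 hr (1 in the fit of all arrays, against 3.34% of all probe sets), array weights gave 2 (8.6%), array batch 2 alone 0 (1.83%), and leaving out an array 0 to 1, with 0 without control replicate 1, BMP24h replicate 1 or BMP24h replicate 3. At 6 hr (0 in that fit, 1.73%) array batch 2 alone gave 1 (1.75%) and leaving out an array 0 to 2, with 1 without control replicate 1 (3.04%) or BMP6h replicate 1 (2.51%) and 2 without BMP6h replicate 3 (6.97%). Between the times (1 in that fit, 2.92%) it was 2 without a batch term (4.23%), with an intensity trend (3.31%), with array weights (8.0%), with median centring (2.67%) or without dim probe sets (5.72%), which left 13 members, and 0 with the 2 groups alone or array batch 2 alone. Leaving out an array gave 0 to 7 there, with 7 without BMP6h replicate 3, where 8.28% of all probe sets passed, and 0 without BMP6h replicate 1, BMP6h replicate 2, BMP24h replicate 1 or BMP24h replicate 3. In the F-test at 0.005 the ordinary analysis gave 1 (Bad, 0.915%) and array weights 1 (4.65%), against 0 (0.824%). For other genes, averaging each gene's probe sets gave 5 past the thresholds of the Methods at 24 hr, against 3, and 4 between the times, against 2, and 1 past the adjusted test at 24 hr (Ngfr), against 0. The causes were not tested.

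With the replicate number as a block, the count past the thresholds of the Methods between the times was 3 (Hrk D83697_at, rc_AA925846_s_at and rc_AI102299_s_at), where 3.89% of all probe sets passed, against 1, and no other count of members moved. Whether numbers pair the samples was checked within batch 2, where the differences of replicates 2 and 3 correlated at 0.05 between control and BMP6h, 0.02 between control and BMP24h and 0.40 between BMP6h and BMP24h over probe sets. The last is the comparison in which the block moved the count, and the other 2 were near 0. The check rests on 1 difference per condition, and that of BMP6h includes its outlying replicate 2. It therefore cannot settle the pairing. The numbers were not taken to pair the samples, and the block is given as an alternative only.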
